A study of Mus musculus with 6 samples.

Results

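Metallothioneins and zinc transporters set how much zinc neural cells hold, bind and release, and 6 such genes were followed here in cells sorted from mouse cortex bordering an infarct. They were taken by symbol from a table of 24419 genes, and each was found: Mt1, Mt2 and Mt3, which encode metallothioneins, Slc30a1 and Slc30a3, which encode zinc exporters of the SLC30 (ZnT) family, and Slc39a14, which encodes an importer of the SLC39 (ZIP) family. All 6 passed the filter on low values, among 14796 genes that did. RNA came from male mice, 4 days (day 4) after transient blockage of a middle cerebral artery for 60 minutes, and was sequenced as 6 libraries. The 3 libraries labelled cKO came from mice with the genotype Slc17a7-cre; Slc32a1-cre; Padi4flox/flox, in which glutamatergic neurons make Cre from Slc17a7 and inhibitory neurons from Slc32a1, so that other cells would keep Padi4. The 3 libraries labelled control came from Padi4flox/flox mice, which carry the same loxP-flanked alleles and no Cre driver, so Cre itself and the deletion cannot be told apart. Ages were not stated, nor whether each library came from a separate animal, so a p-value here measures spread between libraries that may be technical.

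Metallothioneins are small cysteine-rich proteins that bind zinc and copper. Transcription of Mt1 and Mt2 is raised by zinc through the metal-responsive factor Mtf1, which binds metal response elements near the gene start, and also by glucocorticoids and by tissue injury, with astrocytes as the main source in brain. Mt3 is the brain-enriched member, made by neurons and astrocytes. Slc30a1 moves zinc out across the plasma membrane and is a target of Mtf1 too, whereas Slc30a3 loads zinc into synaptic vesicles of glutamatergic neurons. Slc39a14 brings zinc, iron and manganese into cells and is induced by inflammatory cytokines in liver.

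The bases before the gene start are shown for the metallothioneins and Slc30a1 because metal response elements are a known feature of Mt1, Mt2 and Slc30a1, and Mt3, which is little induced by metals, is set beside them. The stretches are the 250 bases before the RefSeq start in GRCm38.p6, on the plus strand, at chr8:94178839-94179088 for Mt1, chr8:94172368-94172617 for Mt2, chr8:94152357-94152606 for Mt3 and chr1:191906531-191906780 for Slc30a1. Capitals mark matches, on either strand, to the core of the metal response element, searched as TGCACNC and TGCGCNC.
Mt1: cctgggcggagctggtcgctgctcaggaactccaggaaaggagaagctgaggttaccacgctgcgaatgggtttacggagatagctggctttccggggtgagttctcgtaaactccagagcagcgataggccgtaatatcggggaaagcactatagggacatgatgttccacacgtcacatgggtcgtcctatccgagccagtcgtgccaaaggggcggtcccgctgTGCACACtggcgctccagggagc
Mt2: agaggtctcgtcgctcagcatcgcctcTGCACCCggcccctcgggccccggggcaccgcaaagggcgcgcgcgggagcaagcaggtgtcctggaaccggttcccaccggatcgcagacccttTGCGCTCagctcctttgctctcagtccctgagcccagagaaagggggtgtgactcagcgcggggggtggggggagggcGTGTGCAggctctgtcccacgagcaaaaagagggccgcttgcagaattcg
Mt3: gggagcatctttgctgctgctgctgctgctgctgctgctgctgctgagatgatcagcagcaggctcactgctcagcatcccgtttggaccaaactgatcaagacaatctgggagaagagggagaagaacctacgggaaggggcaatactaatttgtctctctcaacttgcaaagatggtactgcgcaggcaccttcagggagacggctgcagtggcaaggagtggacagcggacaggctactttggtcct
Slc30a1: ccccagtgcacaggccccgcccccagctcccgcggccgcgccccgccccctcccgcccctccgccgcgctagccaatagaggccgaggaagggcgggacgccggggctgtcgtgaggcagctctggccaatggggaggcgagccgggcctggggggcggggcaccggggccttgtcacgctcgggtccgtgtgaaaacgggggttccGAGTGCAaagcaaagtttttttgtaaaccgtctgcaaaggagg
Mt2 held 3 matches, Mt1 held 1, Slc30a1 held 1 and Mt3 held 0. Of 32851 RefSeq promoters of the same length, 21.4% held at least 1 match and 1.26% at least 3. With the first 50 transcribed bases included, the numbers were 4 in Mt2, 3 in Mt1, 2 in Slc30a1 and 1 in Mt3. Of all promoters at that length, 0.517% held as many as Mt2, 1.97% as many as Mt1, 7.11% as many as Slc30a1 and 25.7% as many as Mt3, so the window sets part of the counts. A match is a string of letters and not a shown binding site.

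The libraries held 10094145 to 24056755 reads, and the values below are read counts scaled to depth and then rescaled per library (scaled CPM) as deposited. The targeted gene did not bear out the labels: Padi4, which encodes an enzyme converting arginine to citrulline, had 0, 3 and 12 reads in the libraries labelled cKO replicates 1, 2 and 3, against 0 in each library labelled control (log2 difference 0.32, exact two-sided permutation p = 0.4, smallest possible 0.1). Gene totals do not say whether those reads lie in the deleted exons, and 0 reads allow up to 0.167 to 0.277 scaled CPM in the libraries labelled control. Directions below are therefore those of the labels. The cells were sorted as Thy1-positive neurons lacking ACSA2, CD31, CD45 and O4, antigens of astrocytes, endothelium, leukocytes and oligodendrocytes. The 15 pan-neuronal markers all passed the filter, summing to 1619 to 7760 scaled CPM, and 14 oligodendrocyte markers summed to 12365 to 36303 scaled CPM. The oligodendrocyte sum was above the pan-neuronal sum in each library. Markers of pericytes, smooth muscle and fibroblasts summed to 327 to 5172 scaled CPM. The values below are therefore not of neuronal RNA alone. The library labelled cKO replicate 2 stood apart, with the fewest detected genes (14042, against 15261 to 17891 in the other 5), and the difference of each of the 6 genes is therefore also given without it. In such bulk samples, fewer cells of a type and less RNA per cell cannot be told apart.

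Per kilobase of exon, Mt1 had the highest level of the 6 genes and Slc39a14 the lowest. Mt1 averaged 183 ± 112 scaled CPM per kb (SD over the 6 libraries), Mt2 81.5 ± 53.0 and Mt3 28.2 ± 15.05. Slc30a3 averaged 12.7 ± 10.2 scaled CPM per kb, Slc30a1 10.5 ± 2.87 and Slc39a14 7.59 ± 4.20. The order Mt1, Mt2, Mt3, Slc30a3 held within each of the 6 libraries. Below that the order was not fixed: Slc30a3 was above Slc30a1 in 3 of 6 libraries, with a log2 ratio of -0.14 ± 1.73 (SD), and Slc30a1 was above Slc39a14 in 5 of 6 (0.53 ± 1.09). Among the zinc transporter genes outside the 6, Slc30a4, an exporter of intracellular compartments, was at 28.1 ± 14.5 scaled CPM per kb, Slc39a10, a plasma membrane importer, at 27.8 ± 7.92 and Slc39a1 at 24.7 ± 8.26, all about the level of Mt3.

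**Figure D1:**
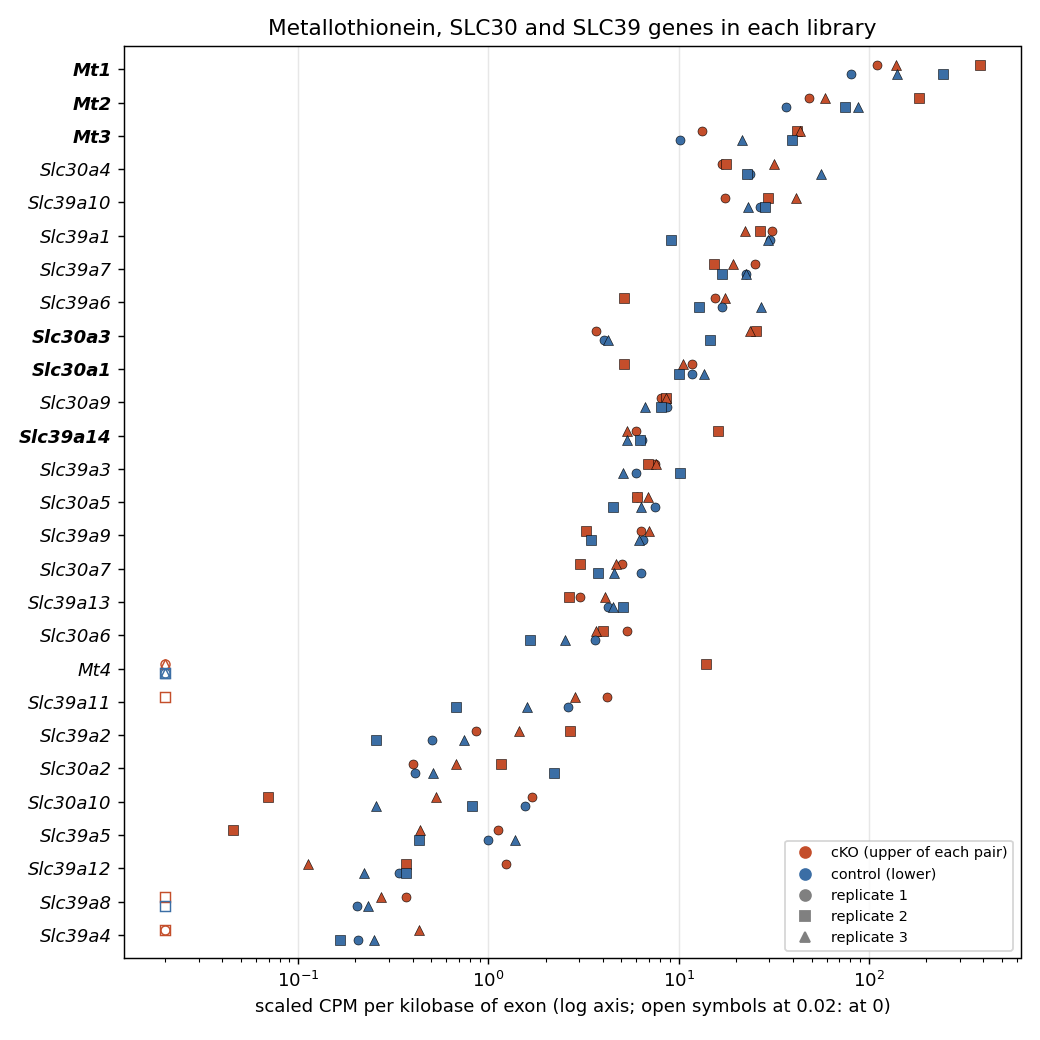
Levels of the metallothionein, SLC30 and SLC39 genes as scaled CPM per kilobase of exon on a log axis, with 1 symbol per library, libraries labelled cKO in red above libraries labelled control in blue, and the 6 genes of interest in bold. Mt1 and Mt2 lie above the other genes in the mean, and Mt4 has a value in the library labelled cKO replicate 2 alone.

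Mt1 lies at chr8:94179082-94180327 on the plus strand in mm10. It had 138, 477 and 173 scaled CPM in the libraries labelled cKO replicates 1, 2 and 3, against 101, 305 and 176 in the libraries labelled control replicates 1, 2 and 3. Both libraries numbered 2 were the highest and both numbered 1 the lowest, and the groups overlapped. The means were 263 ± 186 in the libraries labelled cKO and 194 ± 103 in those labelled control (SD, n = 3 each). The log2 difference was 0.36 (SE 0.52, 95% interval -0.79 to 1.51), and limma gave an adjusted p = 0.9996. It was -0.18 without cKO replicate 2 and -0.04 without control replicate 1, so the sign of the Mt1 difference rested on single libraries.

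Mt2, at chr8:94172664-94173568, lies next to Mt1 on the same strand. It had 28.5, 108 and 34.5 scaled CPM in the libraries labelled cKO, against 21.5, 44.1 and 51.4 in those labelled control. The highest value was again in cKO replicate 2, but control replicate 3 came before control replicate 2. The mean was 56.9 ± 44.1 in the libraries labelled cKO and 39.0 ± 15.6 in those labelled control (SD, n = 3 each), a log2 difference of 0.37 (SE 0.54, 95% interval -0.84 to 1.57, limma adjusted p = 0.9996). Without cKO replicate 2 the difference was -0.22, and without both libraries numbered 2 it was -0.084. Without control replicate 1 it was -0.0036, so the sign of the Mt2 difference rested on single libraries too. The annotation places an antisense gene, Gm45774, over Mt2, and 45.8% of the 50-base stretches of Mt2 transcripts lie in it on the opposite strand, while no 50-base stretch was shared with Mt1 or Mt3. The strand setting of the counting was not stated, so sense and antisense reads of Mt2 cannot be told apart.

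Mt1 and Mt2 kept a similar proportion in most libraries. Mt1 was 4.85, 4.43 and 5.02 times Mt2 in the libraries labelled cKO, against 4.68, 6.91 and 3.43 times in those labelled control, without correction for length. The widest departures were thus in control replicates 2 and 3. The reads behind these ratios were 1091 to 4720 per library for Mt1 and 233 to 1066 for Mt2.

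Mt3, at chr8:94152607-94154146, had 14.1, 44.5 and 46.2 scaled CPM in the libraries labelled cKO, against 10.9, 42.0 and 22.8 in those labelled control. Here cKO replicate 3 was as high as cKO replicate 2, unlike for Mt1 and Mt2, and both libraries numbered 1 were again the lowest. The mean was 34.9 ± 18.1 in the libraries labelled cKO and 25.2 ± 15.7 in those labelled control (SD, n = 3 each), a log2 difference of 0.47 (SE 0.60, 95% interval -0.87 to 1.81, limma adjusted p = 0.9996). Without control replicate 1 it was -0.0053, and without cKO replicate 2 it was 0.21. Mt3 made up 18.2% of the summed metallothionein level in cKO replicate 3, against 7.02% to 10.8% in the other 5 libraries. Mt4, the metallothionein of squamous epithelium, had 55 reads in cKO replicate 2 and 0 in the other 5.

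Slc30a1, the plasma membrane exporter, at chr1:191906767-191913247, did not follow the metallothioneins. It had 61.8, 27.0 and 55.4 scaled CPM in the libraries labelled cKO, against 61.8, 52.6 and 70.9 in those labelled control. The lowest library, cKO replicate 2, was the one with the most Mt1 and Mt2, and control replicate 2 was the next lowest. Of all tested genes, 34.3% had their lowest value in cKO replicate 2. The mean was 48.0 ± 18.5 in the libraries labelled cKO and 61.7 ± 9.15 in those labelled control (SD, n = 3 each), a log2 difference of -0.43 (SE 0.39, 95% interval -1.29 to 0.43, limma adjusted p = 0.9996). Without cKO replicate 2 the difference was -0.07. Slc30a1 was 0.448, 0.0566 and 0.319 times Mt1 in the libraries labelled cKO, against 0.614, 0.173 and 0.402 times in those labelled control. An antisense gene, 1700034H15Rik, overlaps it on the opposite strand and was at 3.94 scaled CPM or less in each library.

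Slc30a3, the synaptic vesicle transporter, at chr5:31086106-31108237 on the minus strand, had the widest range. It had 10.4, 72.6 and 67.1 scaled CPM in the libraries labelled cKO, against 11.4, 41.6 and 12.1 in those labelled control. Of the 3 libraries labelled cKO, 2 lay above every library labelled control and 1 below all of them. The mean was 50.1 ± 34.4 in the libraries labelled cKO and 21.7 ± 17.3 in those labelled control (SD, n = 3 each), a log2 difference of 1.02 (SE 0.76, 95% interval -0.66 to 2.69, limma adjusted p = 0.9996). The difference was 1.89 without cKO replicate 1 (limma unadjusted p = 0.0055, adjusted p = 0.735) and 1.60 without control replicate 2. It was 0.55 without cKO replicate 2 and 0.61 without cKO replicate 3, so its size, but not its sign, rested on single libraries. Markers of glutamatergic neurons, of which 10 of 10 were tested, had a summed level of 509, 2445 and 3280 scaled CPM in the libraries labelled cKO, against 876, 2450 and 1188 in those labelled control. Slc17a7, the vesicular glutamate transporter gene and itself 1 of those markers, was at 51.9, 87.9 and 470.0 scaled CPM in the libraries labelled cKO, against 116, 208 and 96.9 in those labelled control. The marker sum was low in the same 3 libraries as Slc30a3, but alike in cKO replicate 2 and control replicate 2, where Slc30a3 was not. Between the groups the 10 markers had 4 positive and 6 negative log2 differences, with a median of -0.03 beside 1.02 for Slc30a3. The sign of that median was not stable. Without cKO replicate 1, 2 or 3 it was 0.88, -0.28 and -0.64. Without control replicate 1, 2 or 3 it was -0.21, 0.29 and -0.11. With edgeR it was 0.42 and with DESeq2 0.39. None of the 10 markers was at 0 in a library, and their part in the Slc30a3 difference was not tested.

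Slc39a14, the importer, at chr14:70303469-70351425 on the minus strand, was even in 5 libraries and high in 1. It had 62.9, 170.0 and 56.4 scaled CPM in the libraries labelled cKO, against 68.1, 66.2 and 56.8 in those labelled control. The mean was 96.4 ± 63.8 in the libraries labelled cKO and 63.7 ± 6.04 in those labelled control (SD, n = 3 each), a log2 difference of 0.41 (SE 0.43, 95% interval -0.54 to 1.36, limma adjusted p = 0.9996). Without cKO replicate 2 it was -0.091, and without both libraries numbered 2 it was -0.062. Its 1683 reads in cKO replicate 2 and 739 to 1339 in the other libraries leave little counting error in that contrast.

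**Figure D2:**
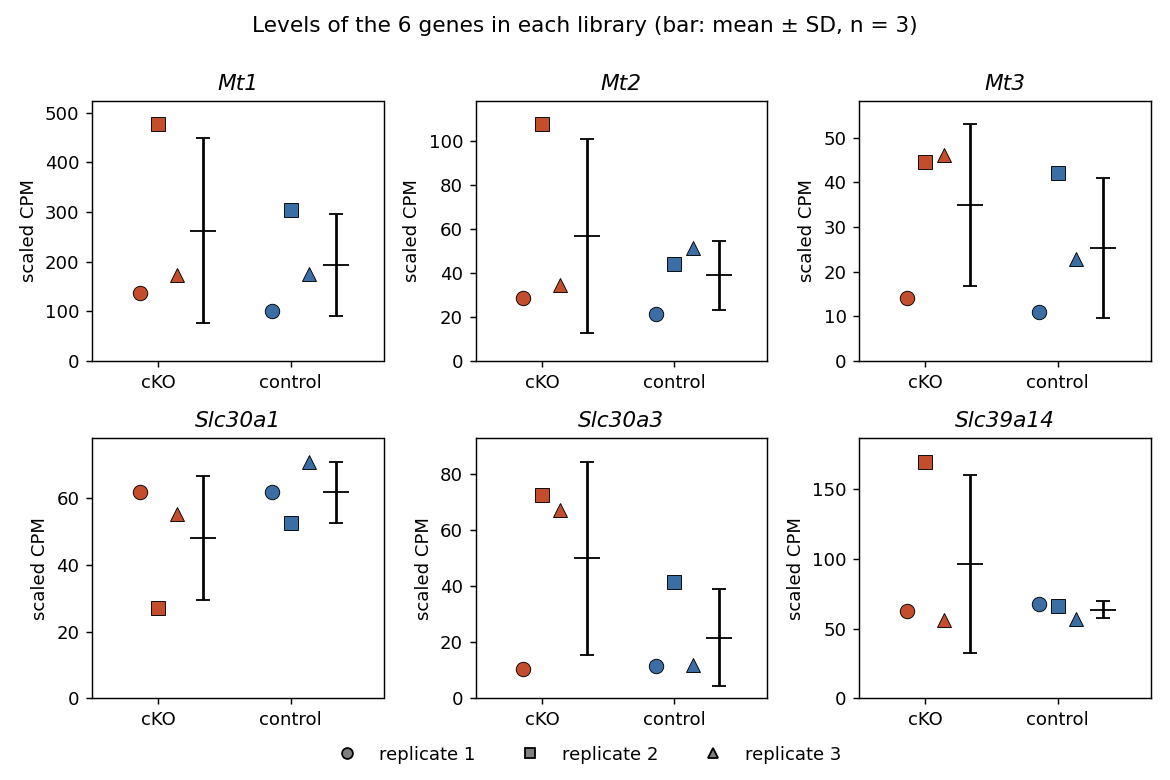
Scaled CPM of each of the 6 genes, with 1 symbol per library shaped by replicate number, libraries labelled cKO on the left and control on the right of each panel, and bars for mean ± SD (n = 3). Replicate 2 (squares) is highest in both groups for Mt1 and lowest in both for Slc30a1, and Slc39a14 stands out in the library labelled cKO replicate 2 alone.

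The design sets neuronal loss of Padi4 against intact Padi4 after stroke, and for this contrast none of the 6 genes passed the threshold. Limma called 0 of 6 at an adjusted p under 0.05 and 0 of 6 at an unadjusted p under 0.05, and edgeR and DESeq2 on recovered reads also called 0 of 6. The background among the 14796 tested genes was 0 calls (0%) in each direction, and at an unadjusted p under 0.05 it was 0.852% (50 genes higher, 0.338%, and 76 lower, 0.514%). In 0 of the 6 genes did the groups fail to overlap, where 4.7% of all tested genes had no overlap (2.45% with every library labelled cKO above and 2.26% with every one below). Of the 6 log2 differences 5 were positive, beside 48.0% of all tested genes, with a median of 0.39 beside -0.02 over all tested genes. The 6 genes were chosen with earlier results of these data known, so that count is a description only. Mt1, Mt2 and Slc39a14 turned negative without cKO replicate 2, and Mt1, Mt2 and Mt3 without control replicate 1. The intervals were wide, and the largest log2 change in either direction that they still hold is 2.69 for Slc30a3.

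**Figure D3:**
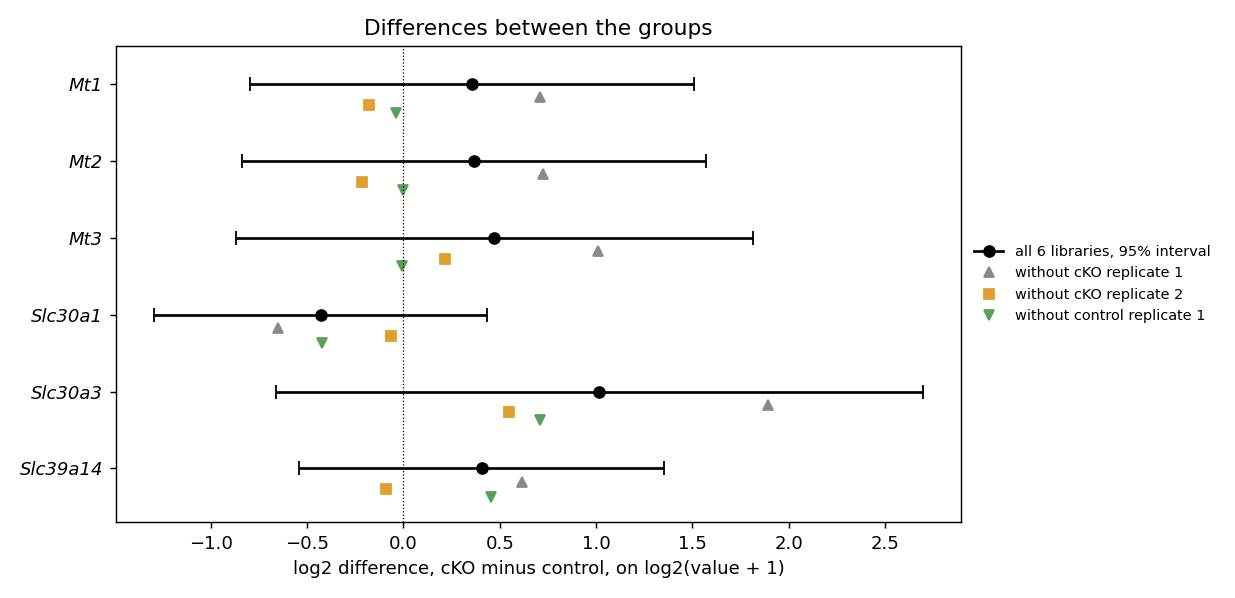
Log2 difference of each gene, libraries labelled cKO minus those labelled control, on log2(value + 1), with the 95% interval from limma as a black bar and the value without 1 library as coloured symbols. All 6 intervals cross 0, and Mt1, Mt2 and Slc39a14 change sign without cKO replicate 2.

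The 6 genes differed in profile over the 6 libraries, with Mt1 and Mt2 the closest pair among them. Likeness was measured as the root mean square difference between 2 genes of log2(value + 1), each centred on its mean over the 6 libraries, among 9969 named genes with a mean of at least 10 scaled CPM besides the gene itself, and is a description with no test. For Mt1 the nearest were Wwc1, a Hippo pathway scaffold gene (difference 0.10), Cul9, a cullin gene (0.12), and Fkbp5, a glucocorticoid-induced co-chaperone gene (0.12), while Mt2 ranked 106 (0.29), Slc39a14 961 and Slc30a1 7754 (1.13). Fkbp5 was at 14.8, 58.4 and 21.7 scaled CPM in the libraries labelled cKO, against 14.2, 37.5 and 21.4 in those labelled control. For Mt2 the nearest were Trmt1, a tRNA methyltransferase gene (0.13), Ddx55, an RNA helicase gene (0.15), and Prpf40b, a splicing factor gene (0.15), with Mt1 at rank 79.

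For Mt3 the nearest were Sptb, a spectrin gene (0.13), Nr1d1, a circadian repressor gene (0.14), and Mgat5b, a brain glycosyltransferase gene (0.14), and Mt1 ranked 768. Slc30a3 was nearest to Chst1, a sulfotransferase gene (0.17), Tmem59l, a neuronal membrane protein gene (0.23), and Ackr1, a chemokine-binding receptor gene (0.27), with Mt3 at rank 134. Slc30a1 was nearest to Impdh2, an enzyme gene of guanine nucleotide synthesis (0.06), Rpl9, a ribosomal protein gene (0.08), and Ifit2, an interferon-induced gene (0.08). Slc39a14 was nearest to Lrtm1 (0.09), Mphosph6, an RNA exosome cofactor gene (0.11), and Acss2, an acetyl-CoA synthetase gene (0.14), which share its high value in cKO replicate 2.

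**Figure D4:**
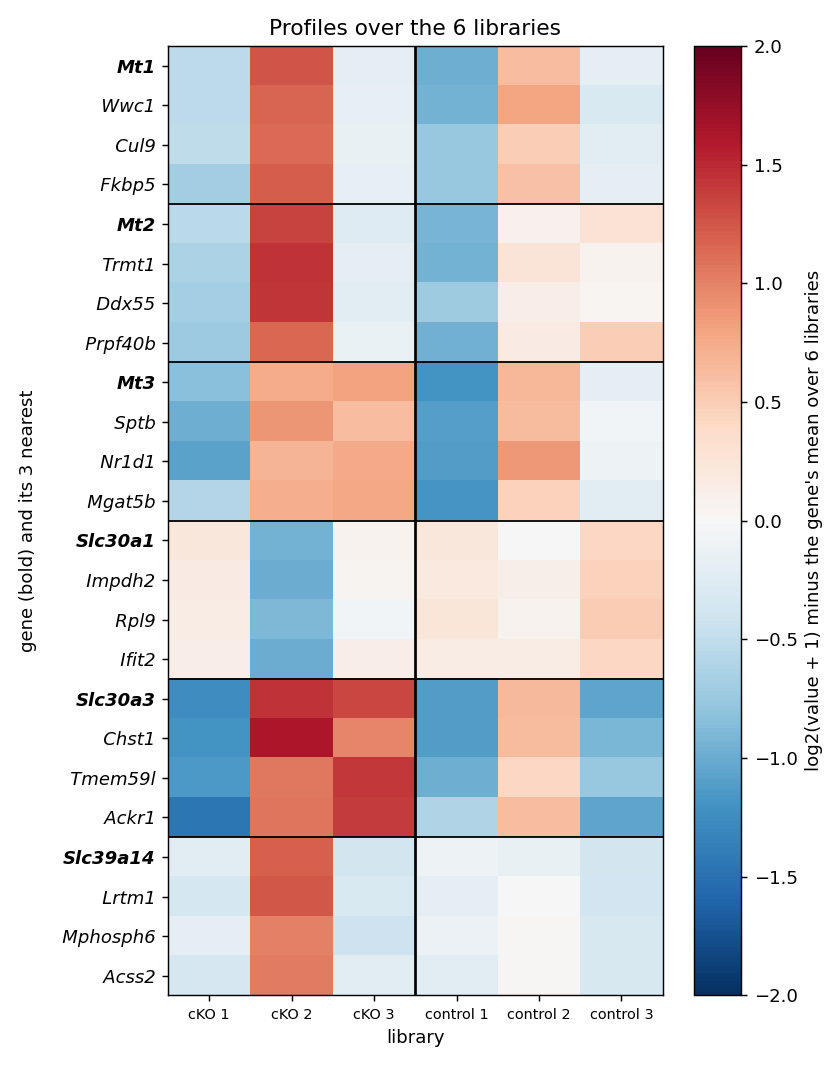
Heat map of log2(value + 1) minus the gene's mean over the 6 libraries, for each of the 6 genes (bold) and its 3 nearest genes, with the libraries labelled cKO left of those labelled control. Mt1, Mt2 and Slc39a14 peak in cKO replicate 2, where Slc30a1 has its minimum. Mt3 and Slc30a3 are high in cKO replicates 2 and 3 and also in control replicate 2.

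Genes known to respond to glucocorticoids, hormones that also raise Mt1 and Mt2, are described here by library, as a list chosen with these values known. Of the 15 tested besides Mt1 and Mt2, 10 had their highest value in cKO replicate 2 (66.7%, beside 23.8% of all tested genes), and in 8 (53.3%, beside 11.7%) the libraries numbered 2 were the highest pair. Zbtb16, a transcription factor gene, was at 55.3, 149.9 and 61.1 scaled CPM in the libraries labelled cKO, against 51.2, 134.9 and 93.6 in those labelled control. Plin4, a lipid droplet coat gene, was at 53.1, 253.7 and 29.1 scaled CPM in the libraries labelled cKO, against 24.7, 118.2 and 67.3 in those labelled control. Astrocyte markers, from cells that a sort against ACSA2 is meant to remove, were also highest in cKO replicate 2 in 11 of 20 cases (55.0%). Their summed level was 3082, 4017 and 2320 scaled CPM in the libraries labelled cKO, against 2859, 2478 and 2226 in those labelled control, and none was at 0 in a library. Outside cKO replicate 2, both libraries numbered 1, the lowest in Mt1, came next in these sums, ahead of control replicate 2. Glul, 1 of those markers, set that order, which the sums did not keep without it. It was at 1362, 1077 and 816 scaled CPM in the libraries labelled cKO, against 1509, 714 and 1044 in those labelled control. The libraries numbered 2 were the highest pair in 7 of the 20 astrocyte markers (35.0%, beside 11.7% of all tested genes). Between the groups the astrocyte markers had 19 positive and 1 negative log2 differences, with a median of 0.49 and 0 called by limma. Of all tested genes, 48.0% were positive. The astrocyte median was 0.093 without cKO replicate 2 and 0.67 without cKO replicate 3. The part of glucocorticoids and of astrocytes in the Mt1 and Mt2 values was not tested. Between the groups, 0 of the 17 glucocorticoid-responsive genes passed the limma threshold (11 positive and 6 negative log2 differences, median 0.22). That median was -0.22 without cKO replicate 2, -0.084 without control replicate 1 and -0.049 without both libraries numbered 2. Those with the smallest unadjusted p were Nr3c1, the glucocorticoid receptor gene (-0.39, SE 0.33), Nr3c2, the mineralocorticoid receptor gene (0.48, SE 0.43), Errfi1 (-0.33, SE 0.34) and Mt1.

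Of the SLC30 exporters, 9 of 10 were tested and 0 passed the limma threshold, with 4 positive and 5 negative log2 differences and a median of -0.18. The sign of that median was not stable: it was 0.077 without cKO replicate 1, 0.101 without cKO replicate 2, 0.067 without control replicate 1, 0.121 without both libraries numbered 2, 0.069 with the filter at 5 and 0.018 with quantile normalization. After Slc30a3, the smallest unadjusted p were those of Slc30a4 (-0.55, SE 0.41), Slc30a6 (0.72, SE 0.54) and Slc30a1. Slc30a6, which serves the secretory pathway, was at 16.6, 12.3 and 11.3 scaled CPM in the libraries labelled cKO, against 11.2, 5.08 and 7.78 in those labelled control, groups that did not overlap by a narrow margin. Slc30a9, a mitochondrial zinc transporter gene, was the most even, at 100.3 to 106.6 scaled CPM in the libraries labelled cKO, against 82.3 to 107.3 in those labelled control. Slc30a8, the transporter of pancreatic insulin granules, had 0 reads in all 6 libraries.

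Of the SLC39 importers, 13 of 14 were tested and 0 passed the limma threshold, with 8 positive and 5 negative log2 differences and a median of 0.09. The median was -0.13 without cKO replicate 1, -0.055 without cKO replicate 3 and -0.20 without control replicate 2. Slc39a2 had the smallest unadjusted p, at 2.97, 9.29 and 5.01 scaled CPM in the libraries labelled cKO, against 1.75, 0.883 and 2.56 in those labelled control, where the groups did not overlap (log2 difference 1.25, SE 0.67, limma adjusted p = 0.9996). The annotation places Mettl17 over Slc39a2 and both run along the same strand, which leaves reads that could belong to either gene. The next were Slc39a6 (-0.67, SE 0.49), Slc39a13 (-0.49, SE 0.44), whose groups did not overlap either, and Slc39a14. Slc39a10, whose mean per kilobase was the highest of the importers although Slc39a1 was above it in 3 of 6 libraries, had a log2 difference of 0.09 (SE 0.35).

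The list of metallothionein and metal-responsive control genes had 12 of 13 tested and 0 called by limma, with 9 positive and 3 negative log2 differences and a median of 0.23. Mtf1 itself was even, at 74.5, 47.2 and 45.1 scaled CPM in the libraries labelled cKO, against 51.7, 43.8 and 60.3 in those labelled control (log2 difference 0.07, SE 0.35). The smallest unadjusted p were those of Usf1 (0.96, SE 0.47) and Sp1 (-0.64, SE 0.34), which encode transcription factors, Nfe2l2 (-1.21, SE 0.72), which encodes the oxidative stress factor Nrf2, and Gclm (0.43, SE 0.33), a glutathione synthesis gene. The libraries did not overlap between groups for Usf1, Sp1 and Gclm, 3 of 12 beside 4.7% of all tested genes.

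Among vesicular zinc partners, which include the AP-3 adaptor subunits that route Slc30a3 protein to vesicles, 13 of 14 were tested and 0 called by limma, with 6 positive and 7 negative log2 differences and a median of -0.02, which was positive under 9 of the alternatives, up to 0.24 with edgeR. Ap3b2, the neuronal AP-3 subunit gene, was at 59.7, 114.6 and 113.3 scaled CPM in the libraries labelled cKO, against 66.4, 150.9 and 94.8 in those labelled control. Trpc6, a cation channel gene (0.82, SE 0.49), Ap3s1 (0.69, SE 0.54) and Ap3b1 (0.22, SE 0.32) had the smallest unadjusted p besides Slc30a3. Copper handling genes had 18 of 19 tested and 0 called by limma, with 8 positive and 10 negative log2 differences and a median of -0.05 that was 0.20 without cKO replicate 2 and 0.085 without control replicate 1, Sod3 (1.75, SE 0.90), Steap3, Steap2 and Cox17 being first by unadjusted p. Injury-induced gp130 and STAT3 genes, the class to which the cytokine response of Slc39a14 in liver belongs, had 12 of 13 tested and 0 called by limma, with 8 positive and 4 negative log2 differences and a median of 0.15. The median was -0.10 without cKO replicate 1, -0.24 without control replicate 2 and -0.080 without both libraries numbered 2. Lcn2 (1.27, SE 0.91) and Il6ra (-0.82, SE 0.69) came first there by unadjusted p. Lcn2, the lipocalin gene of reactive astrocytes, was at 0.768, 15.7 and 1.47 scaled CPM in the libraries labelled cKO, against 0.461, 1.77 and 0.278 in those labelled control.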

How the data were processed

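Peri-infarct cortex was digested with pronase for 75 minutes, and cells positive for Thy1 and negative for ACSA2, CD31, CD45 and O4 were sorted for RNA, made into Ovation SoLo libraries, per the labels' protocols. Trimmomatic, HISAT2, featureCounts, edgeR and mm10 are named in the submitters' processing notes, without versions. The deposited values, 1 column per library, were handled as a normalized signal, that is CPM that the authors appear to have rescaled per library, because column totals differed (961962 to 1027958). All values (100%) were within 0.01 of a whole multiple of 1 step per library, which gave recovered read counts. The design had assumed plain CPM, and its test was kept.

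Groups follow the labels. Limma 3.58.1 (R 4.3.3) was fitted to log2(value + 1) with a trended variance over the 14796 genes that reached 1 scaled CPM in 3 or more libraries. Benjamini-Hochberg adjustment ran over all of them with a threshold of 0.05, and differences are cKO minus control. The scale understates changes of low genes. Alternatives varied the pseudocount (0.1, 5), the filter (none, 5), the scaling (median of ratios, equal totals, quantile), the replicate block, single libraries, both libraries numbered 2, and the tool (edgeR 4.0.16 and DESeq2 1.42.0, recovered reads). The fits were tested on simulated data. Levels per kilobase used the union of GENCODE M21 exons, and shared sequence was counted in 50-base stretches of transcripts. Promoters are from RefSeq (GRCm38.p6), where 5 of the 6 genes were matched by symbol. The members and lists were chosen with earlier results of these data known. The text names the 6 genes, up to 4 genes per list by smallest unadjusted p, and the 3 nearest genes by profile, skipping predicted genes. Other genes given as examples (Fkbp5, Zbtb16, Plin4, Slc17a7, Ap3b2, Mtf1, Slc30a9, Slc39a1, Slc39a10 and Mt4) were picked once their values had been seen. The floor of 3 reads equals 0.126 to 0.303 scaled CPM, and read numbers cover counting error only.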

Additional observations from a re-analysis of the deposited data

How the results depend on the processing

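None of the 17 alternatives took any of the 6 genes past the adjusted threshold, with adjusted p from 0.735 upward in limma, edgeR and DESeq2. Without cKO replicate 2 the log2 difference reversed for Mt1 (-0.18), Mt2 (-0.22) and Slc39a14 (-0.091). Without control replicate 1 it reversed for Mt1 (-0.04), Mt2 (-0.0036) and Mt3 (-0.0053), and without both libraries numbered 2 for Mt2 (-0.084) and Slc39a14 (-0.062). Leaving out 1 library gave -0.18 to 0.75 for Mt1, -0.22 to 0.73 for Mt2, -0.0053 to 1.01 for Mt3, -0.65 to -0.07 for Slc30a1, 0.55 to 1.89 for Slc30a3, -0.09 to 0.70 for Slc39a14 and 0.19 to 0.49 for Padi4. The cause was not tested. Slc30a1 and Slc30a3 kept their direction under all 17. Over all genes DESeq2 called 1 lower (Ifit3), and counts at an unadjusted p under 0.05 ran from 14 to 443 higher and 23 to 546 lower, both largest without cKO replicate 1, against 50 and 76. Scaling moved the median log2 difference of all genes by at most 0.04. Of 289 recomputed list medians, 269 moved by less than the spread between libraries and 20 by more, and sign changes of the pathway lists without 1 library are given or counted beside their medians. With a replicate block the log2 difference of Slc30a3 stayed at 1.02 (unadjusted p = 0.074), and 0 of the 6 genes were called. The deviations of same-numbered libraries correlated at 0.49, 0.30 and 0.03 over tested genes, each library best with its own number, a hint from the data and not the design. With 3 libraries a group the intervals, not read depth, limit what can be seen: at least 118 reads stood behind every value of the 6 genes.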
